A study of Mus musculus with 2 samples.

Results

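The genes that move zinc and copper into, out of and within cells, together with the metallothioneins that bind both metals, were examined in the intestine of newborn mice. The set holds 36 genes, taken by symbol from the 43346 genes of the deposited tables. It comprises 10 ZnT zinc exporters (Slc30a family), 14 Zip zinc importers (Slc39a family), 4 metallothioneins, Mtf1, which is the zinc-sensing transcription factor, and 7 copper genes. Total RNA was sequenced from 1 intestine of each of 2 pups of strain B6NCrl, aged 0 days, born to 1 dam. The labels name no treatment, both pups form a single group, and their sex was not recorded. They are called pup 1 and pup 2 after the replicate numbers, and the design holds no comparison of conditions. Each value is a single library, and 2 values cannot give a p under 0.5 in an exact sign-flip test, so levels are given per pup with their spread and without a p.

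ZnT proteins move zinc out of the cytosol, across the plasma membrane or into vesicles and organelles, and Zip proteins move it the other way. Dietary zinc enters the enterocyte, the absorptive cell of the gut lining, through Slc39a4 on its luminal side and leaves to the blood through exporters that include Slc30a1, while metallothioneins hold zinc in between. Copper enters cells through Slc31a1, is handed on by the chaperones Atox1 and Ccs, and is pumped out of the enterocyte by Atp7a.

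Metallothioneins are small proteins rich in cysteine, the residue that holds the metal. The coding sequences of the 4 members are shown because the cysteine codons are the feature they share. Mt4, Mt3, Mt2 and Mt1 lie in this order within 43.1 kb of chromosome 8 (mm10, 94137197 to 94180327), all on the plus strand. Each sequence runs 5′ to 3′ from GENCODE M21, and capitals mark the in-frame TGC and TGT codons for cysteine.
Mt1: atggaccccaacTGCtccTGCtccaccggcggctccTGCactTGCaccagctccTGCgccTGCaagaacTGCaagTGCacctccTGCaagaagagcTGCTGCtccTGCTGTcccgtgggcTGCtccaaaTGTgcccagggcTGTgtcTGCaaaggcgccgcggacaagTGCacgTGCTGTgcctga
Mt2: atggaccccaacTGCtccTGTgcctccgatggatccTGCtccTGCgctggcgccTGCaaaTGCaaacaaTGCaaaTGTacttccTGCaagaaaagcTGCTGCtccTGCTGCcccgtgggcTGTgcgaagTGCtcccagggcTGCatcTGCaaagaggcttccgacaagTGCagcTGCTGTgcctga
Mt3: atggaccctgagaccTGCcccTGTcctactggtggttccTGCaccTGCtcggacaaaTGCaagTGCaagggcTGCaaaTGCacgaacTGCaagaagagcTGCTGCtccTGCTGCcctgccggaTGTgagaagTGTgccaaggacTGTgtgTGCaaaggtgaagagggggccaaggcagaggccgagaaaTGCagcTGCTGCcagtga
Mt4: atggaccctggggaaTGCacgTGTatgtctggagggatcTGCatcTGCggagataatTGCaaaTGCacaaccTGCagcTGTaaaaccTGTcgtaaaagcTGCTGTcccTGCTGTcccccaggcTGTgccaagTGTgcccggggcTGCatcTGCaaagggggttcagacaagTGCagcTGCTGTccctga
All 4 reading frames hold 20 cysteine codons, which is 32.8% of the 61 codons before the stop in both Mt1 and Mt2, 29.4% of 68 in Mt3 and 32.3% of 62 in Mt4. Mt1 and Mt2 are identical at 148 of 186 coding positions (79.6%). The longest run of bases that their whole transcripts share is 20 bases, so reads longer than that can tell them apart.

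Mtf1 binds metal response elements, whose core was searched as TGCACNC or TGCGCNC on both strands, with overlapping matches counted separately. The windows ran from 250 bases before to 50 after a gene start in the RefSeq table (GRCm38.p6). Mt1, Mt2 and Slc30a1 are textbook targets of Mtf1, so stretches of their windows are shown, 5′ to 3′ on the plus strand, with the cores in capitals. The number after each gene is the position of the first base, with the start of that table as position 1. GENCODE M21 starts these genes elsewhere, with Mt1 at 94179082 and Mt2 at 94172664. Whether a core lies before or after the start therefore depends on the start used.
Mt1 from -37 (chr8:94179052-94179081): gggcggtcccgctgTGCACACtggcgctcc
Mt1 from -2 (chr8:94179087-94179116): gctcTGCACTCcgcccgaaaagTGCGCTCg
Mt2 from -250 (chr8:94172368-94172617): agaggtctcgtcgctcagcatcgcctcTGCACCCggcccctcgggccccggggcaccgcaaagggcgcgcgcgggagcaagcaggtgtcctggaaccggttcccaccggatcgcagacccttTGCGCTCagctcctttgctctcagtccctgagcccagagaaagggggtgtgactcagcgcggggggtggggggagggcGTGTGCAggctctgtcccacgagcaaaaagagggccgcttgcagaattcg
Mt2 from 1 (chr8:94172618-94172647): ggtcGTGCGCAggcccaggggcgtgtgctg
Slc30a1 from -55 (chr1:191906726-191906755): aacgggggttccGAGTGCAaagcaaagttt
Slc30a1 from 19 (chr1:191906799-191906828): cgcctccgggccGAGCGCAgtcgccgcgga
The Mt2 window held 4 cores, that of Mt1 3 and that of Slc30a1 2. Of all 32851 windows, 25.7% held at least 1 core, 7.11% at least 2, 1.97% at least 3 and 0.517% at least 4. A window was listed for 31 of the 36 members, and 19 of their 37 windows (51.4%) held a core. Slc30a10 and Slc30a4 held 3 each, of which 2 in Slc30a10 overlap, Slc30a2 and Atp7a held 2 each, and the window of Mtf1 itself held none. A match describes the letters of the window only.

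The libraries held 44568095 and 34797451 expected counts over genes in pups 1 and 2, where an expected count is an estimated read number that need not be whole. Levels are in TPM, a unit of transcript abundance scaled by transcript length, so that genes can be set side by side. A gene with 0 counts could still hide 3 counts, which is 0.0673 CPM (counts scaled to library size) in pup 1 and 0.0862 CPM in pup 2. The tissue label was checked against markers. The 6 enterocyte markers summed to 52417 and 47653 TPM and the 5 smooth muscle markers to 4666 and 4883 TPM. The 5 markers of Paneth cells, the granule-filled cells at the base of adult crypts, summed to 867 and 879 TPM. RNA of these 5 markers does not show that mature Paneth cells were present at 0 days. Pancreas markers, some of which gut cells also make, were present, with the 8 exocrine pancreas markers at 209 and 290 TPM in sum and the 6 islet markers at 155 and 128 TPM. Enteric neuron markers summed to 132 and 128 TPM, glia to 32.2 and 33.0, macrophages to 212 and 207, and erythroid markers, all 5 higher in pup 2, to 1711 and 2574 TPM.

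Of the 36 members, 30 (83.3%) reached 1 TPM in both pups, called detected here, against 59.1% of all 21461 nuclear protein-coding genes. The detected members were 8 of 10 ZnT, 12 of 14 Zip, 3 of 4 metallothioneins, Mtf1 and 6 of 7 copper genes. Their median of the mean level was 24.4 TPM, beside medians of 12.3 and 12.8 TPM over all detected protein-coding genes in pups 1 and 2. Among the 6 members not detected, Slc30a3, which fills synaptic vesicles with zinc, had 6 and 1 reads in pups 1 and 2. Slc30a8, which does the same for the insulin granules of the islet beta cell, had 3 and 0 reads, although the insulin gene Ins2 stood at 31.0 and 14.5 TPM. Slc39a12, a Zip best known from brain, had 1 and 3 reads, and Slc39a2 had 37 and 19 reads (0.63 and 0.51 TPM). Mt4 and Cp were split by the limit of 1 TPM, being below it in pup 1 and above it in pup 2.

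**Figure D1:**
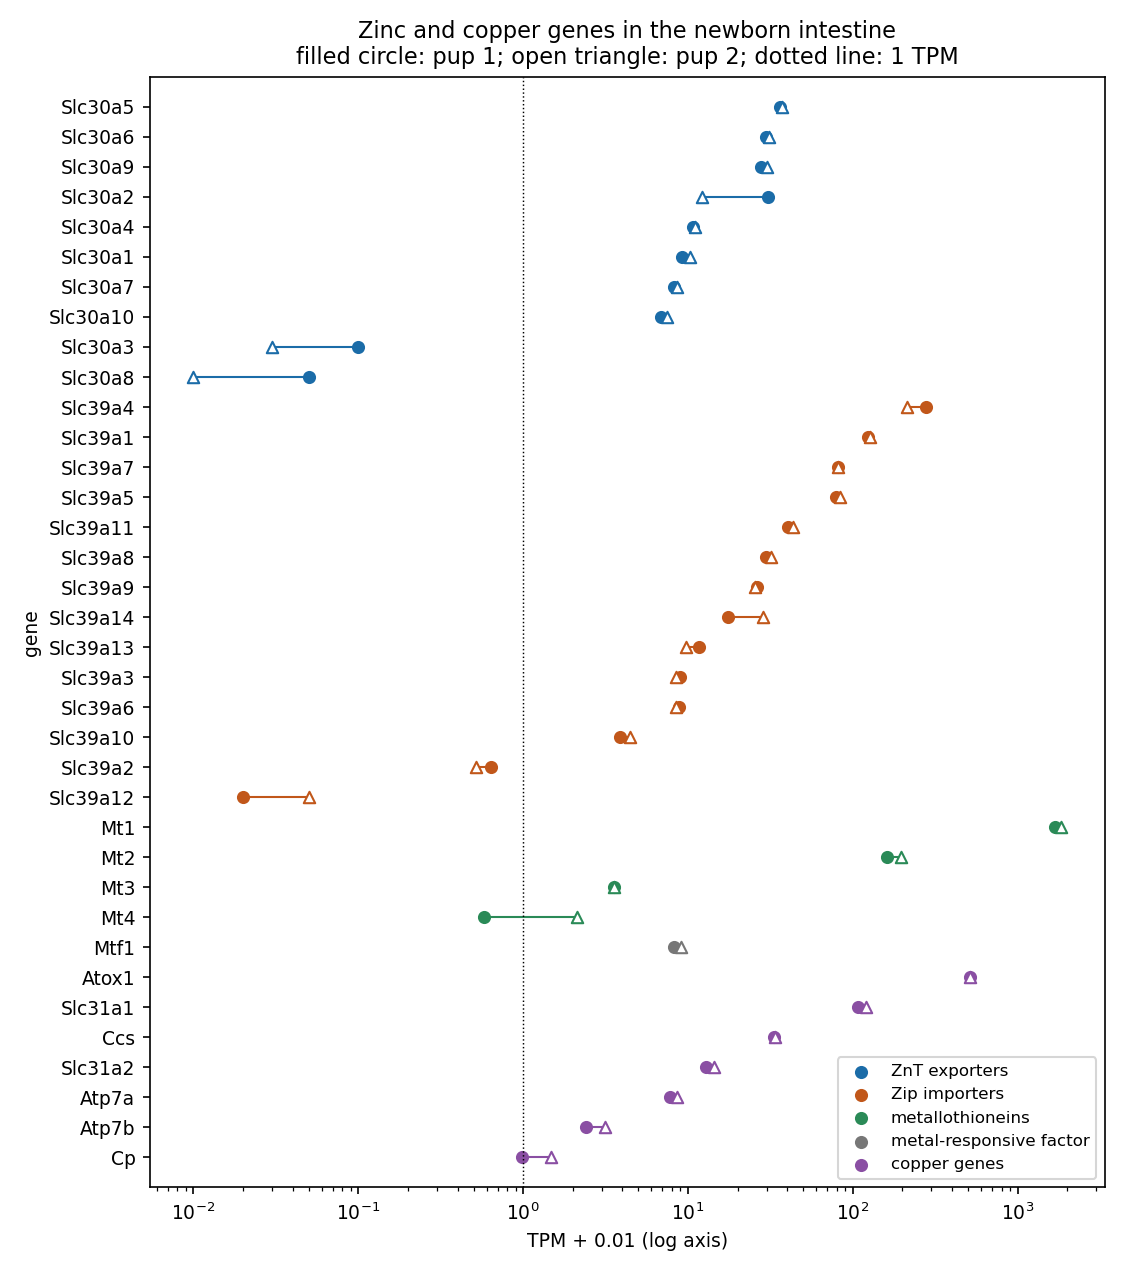
Level of each of the 36 genes in TPM plus 0.01 on a log axis, grouped by class, with pup 1 as a filled circle and pup 2 as an open triangle and the 1 TPM limit dotted. Mt1 stands highest at 1682 and 1840 TPM, Slc39a4 leads the Zip class, and Slc30a2 is the detected gene with the widest gap between pups.

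Metallothionein RNA was the most abundant of the classes, and nearly all of it came from 1 gene. Mt1 stood at 1682 TPM in pup 1 and 1840 TPM in pup 2, a mean of 1761 ± 112 (SD, n = 2). It ranked 33rd among the 21461 nuclear protein-coding genes and made up 91.0% and 90.2% of the metallothionein TPM. Mt2, its close copy in sequence and induction by metals, stood at 162 and 195 TPM and ranked 728th. Of the 556 bases of its transcript, 432 overlap the antisense gene Gm45774, so the Mt2 level and its ratios are uncertain. The ratio of Mt1 to Mt2 was 10.4 in pup 1 and 9.42 in pup 2, a mean log2 ratio of 3.31 ± 0.10 (SD, n = 2). The 2 genes share coding length and cysteine number and both windows above hold several cores, but their RNA differed far beyond the spread between pups.

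The other pair of metallothioneins was sparse. Mt3, known chiefly from brain, stood at 3.55 TPM in each pup from 56 and 43 reads. Mt4, known from stratified epithelia such as tongue and skin, had 6 and 17 reads, or 0.57 and 2.11 TPM. Counts scaled to library size were 3.53-fold higher in pup 2 for Mt4 (exact 95% interval 1.33 to 10.9), an interval that holds 2 and so was not called. These intervals, of the Clopper-Pearson kind, cover counting error only and compare libraries. Between the pups Mt1 and Mt2 were close, with pup 2 over pup 1 at 1.05 (1.03 to 1.06) and 1.15 (1.09 to 1.22). In a whole organ, fewer cells of a type and less RNA per cell cannot be told apart.

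Mtf1, the transcription factor of this system, stood at 8.22 and 9.06 TPM from 548 and 455 reads. Most of that TPM, but not most of the reads, was assigned outside coding models, which held 390 and 314 reads. The retained-intron model Mtf1-204 took 78.2% and 82.7% of the gene's TPM, from 158 and 141 reads. The coding models together came to 1.79 and 1.57 TPM, or 21.8% and 17.3%. The model Mtf1-204 is 781 bases long, of which 263 lie outside the exons of the main coding model Mtf1-201. A further 721 exonic bases of Mtf1-201 overlap 1110065P20Rik on the opposite strand, a gene with 1207 and 904 reads. Whether counting used strand was not given in the sources used here. Mtf1-204 shares no exonic base with that gene.

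The Zip importers were led by the luminal zinc importer of the enterocyte. Slc39a4, whose human counterpart is mutated in the zinc deficiency acrodermatitis enteropathica, stood at 279 TPM in pup 1 and 213 TPM in pup 2. It ranked 528th among protein-coding genes and made up 39.3% and 32.0% of the Zip TPM. Slc39a1, a plasma membrane importer of many tissues, followed at 123 and 127 TPM. Slc39a7, which releases zinc from the endoplasmic reticulum, stood at 81.7 and 81.4 TPM. Slc39a5, the Zip of the basolateral membrane of the enterocyte, stood at 79.0 and 83.9 TPM. Slc39a7 and Slc39a5 did not differ beyond their spread, with means of 81.5 ± 0.15 for Slc39a7 and 81.4 ± 3.45 TPM for Slc39a5 (SD, n = 2).

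The level of Slc39a4 was 3.53 times that of Slc39a5 in pup 1 and 2.54 times in pup 2 (mean log2 ratio 1.58 ± 0.33). The luminal importer also exceeded the basolateral exporter Slc30a1 in both, by 30.3-fold and 20.8-fold (4.63 ± 0.38). Slc39a4 RNA differed between the pups: 21302 and 12482 reads gave a level 1.37-fold higher in pup 1 (1.34 to 1.40), a gap exceeded by 3.07% of detected protein-coding genes. The enterocyte marker sum was 1.10-fold higher in pup 1, and 5 of the 6 markers had the higher TPM there. That sum is mostly Apoa4, Fabp2 and Fabp1. Cdh17 was nearly level at 216.5 and 215.75 TPM, and Vil1 was higher in pup 2, at 174 and 195 TPM. The part of enterocyte RNA in the Slc39a4 gap was not tested.

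Slc39a8 and Slc39a14, close relatives that carry manganese and iron as well as zinc, stood at 29.6 and 31.7 TPM and at 17.4 and 28.5 TPM. Slc39a8 differed little, with a ratio of 1.02 (0.972 to 1.07), while Slc39a14 was, among detected Zip members, the highest in pup 2 relative to pup 1, at 1.39-fold in reads per library size (1.30 to 1.50), a smaller gap than in TPM, which also takes in the lengths of the models. That gap was exceeded by 2.60% of detected protein-coding genes. For Slc39a14, too, the larger share of TPM lay outside coding models, but not of reads: coding models held 896 of 1474 reads in pup 1 and 924 of 1646 in pup 2. The retained-intron model Slc39a14-211 took 60.0% and 57.3% of its TPM, and all coding models together came to 36.1% in each pup, or 6.27 and 10.3 TPM. On whole-gene TPM, Slc39a14 was below Slc39a8 by 0.46 ± 0.43 on the log2 scale, which is about the size of the spread. On coding models alone the log2 ratio was -1.84 ± 0.44, which is larger than the spread. Against the manganese exporter Slc30a10, Slc39a14 was higher by a log2 ratio of 1.63 ± 0.42 on whole-gene TPM. On coding models the log2 ratio was 0.17 ± 0.42, which is within the spread. There Slc39a14 was below Slc30a10 in pup 1 (6.27 against 6.84 TPM) and above it in pup 2 (10.3 against 7.45 TPM).

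Slc39a11 stood at 40.6 and 43.6 TPM and Slc39a9, a Zip of the Golgi, at 26.1 and 25.6 TPM. Slc39a7 exceeded Slc39a13, a vesicle and Golgi importer known for its role in connective tissue, by 7.02-fold and 8.39-fold, with Slc39a13 at 11.6 and 9.71 TPM. Slc39a6 and Slc39a10, which form a pair in 1 complex, stood at 8.81 and 8.41 TPM and at 3.84 and 4.43 TPM. Slc39a6 exceeded its partner by 2.29-fold and 1.90-fold. Slc39a3 stood at 8.91 and 8.43 TPM. For Slc39a13, Slc39a6, Slc39a10 and Slc39a3 the exact 95% interval of the between-pup ratio holds 1.

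ZnT exporters were lower and more even than the Zip class. Slc30a5 and Slc30a6, which work as a heterodimer that loads zinc into the secretory pathway, stood at 35.9 and 37.1 TPM and at 29.8 and 30.8 TPM. Their log2 ratio was 0.27 ± 0.0024 (SD, n = 2), so their RNA was near equal in both pups. Slc30a7, which also feeds zinc to secreted enzymes, was 4.31-fold below Slc30a5 at 8.18 and 8.61 TPM, a level made uncertain by pseudogenes that overlap its exons on the opposite strand. Slc30a9, a mitochondrial zinc exporter, stood at 27.6 and 30.4 TPM. Slc30a1, the exporter of the plasma membrane, stood at 9.20 and 10.3 TPM, Slc30a4 at 10.7 and 11.0 TPM and Slc30a10 at 6.84 and 7.45 TPM. Exons of Slc30a10 share 533 bases with Gm2061 on the opposite strand, a gene with 3563 and 3224 reads, so the Slc30a10 level is uncertain.

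Slc30a2 was the exception among the exporters. This gene fills secretory vesicles with zinc, is known for zinc secretion into milk, and in the adult gut loads the granules of Paneth cells. It stood at 30.8 TPM in pup 1 and 12.2 TPM in pup 2, from 2707 and 931 reads, so that it was near Slc30a5 in one pup and near Slc30a4 in the other. Reads per library size were 2.33-fold higher in pup 1 (exact 95% interval 2.16 to 2.51). It was the only 1 of 33 members tested whose interval lay wholly past 2-fold, against 0.796% of all 19088 genes tested, of which 0.367% were higher in pup 1. Of detected protein-coding genes, 0.205% had a larger gap.

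**Figure D2:**
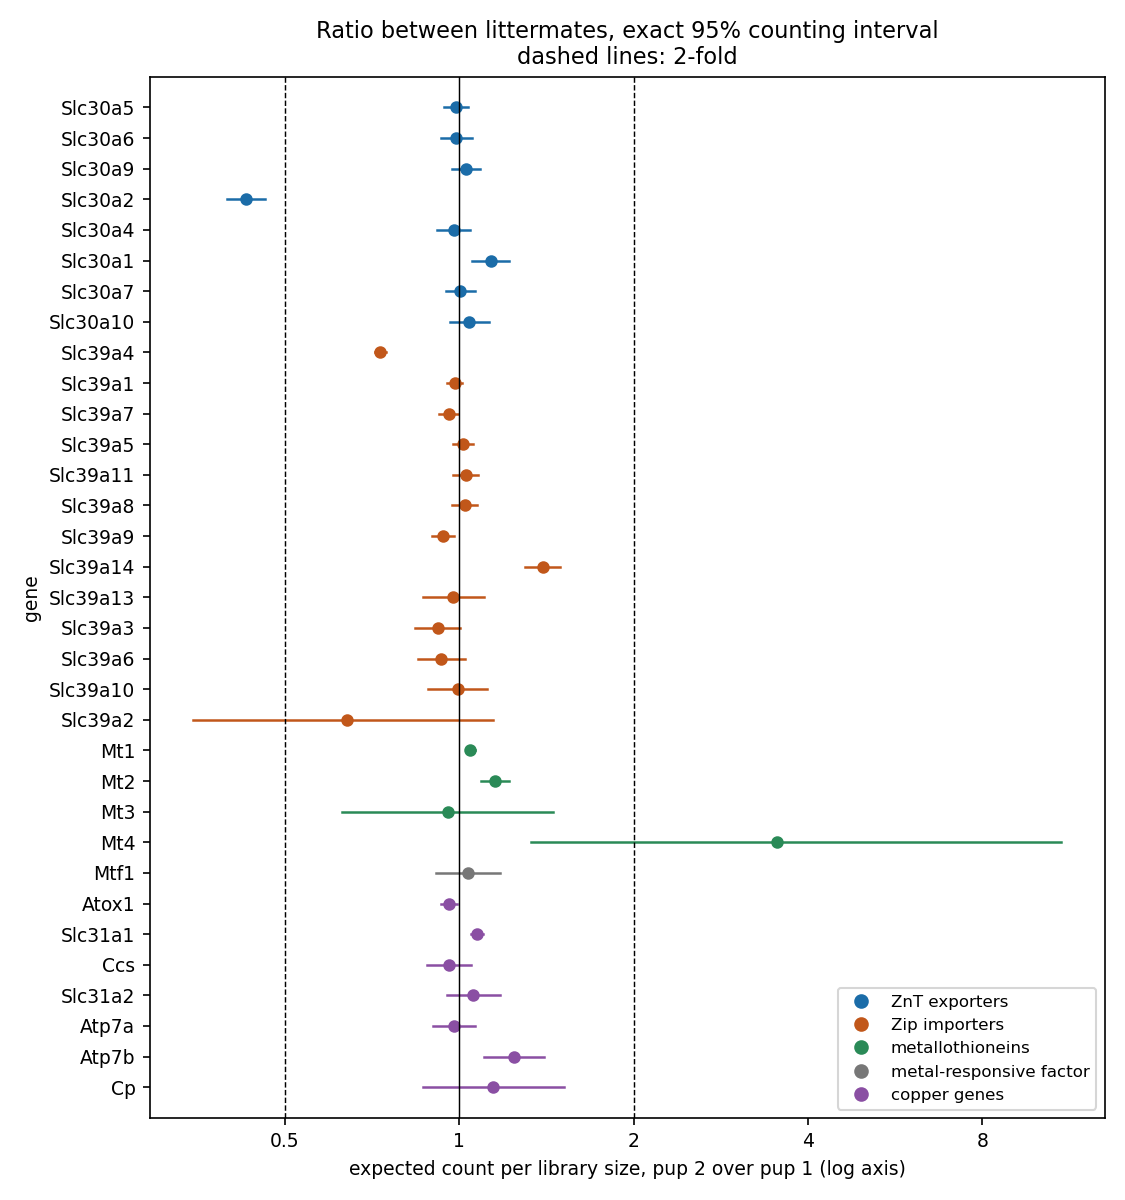
Ratio of expected counts per library size, pup 2 over pup 1, for each gene tested, on a log axis, with its exact 95% counting interval and dashed lines at 2-fold. The interval of Slc30a2 lies wholly below 0.5, and those of Slc39a4 and Slc39a14 lie on opposite sides of 1.

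The Slc30a2 difference was uneven over its transcript models, which lie on chromosome 4 and differ in where they start. Models Slc30a2-203 and Slc30a2-204 start in the first exon and have their coding start at 134343287. Models Slc30a2-201 and Slc30a2-202 start downstream, at 134343709 and 134343466, and have their coding start at 134344198. Slc30a2-204 led in both pups, with 1822 and 832 reads and 53.9% and 81.2% of the gene's TPM. Slc30a2-201 had 674 reads and 31.7% of TPM in pup 1 but 67.7 reads and 10.5% in pup 2. It was 8.08-fold higher in pup 1 (6.29 to 10.5) and was called, as were 9.1% of all 45856 transcripts tested in either direction and 4.76% in this one. Slc30a2-202, with 50.5 and 0 reads, was also called. So was the first-exon model Slc30a2-203, with 160 and 31.3 reads, 4.21-fold higher in pup 1 (2.85 to 6.40), while Slc30a2-204 was not.

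Summed by start, the models of the first exon had 1983 and 863 reads, 1.84-fold higher in pup 1 (1.70 to 2.00). The models starting downstream had 724 and 67.7 reads, 8.54-fold higher in pup 1 (6.65 to 11.1). The sum for the first exon is mostly Slc30a2-204, and Slc30a2-203 lay between the sums. The downstream models held 26.8% of the gene's reads in pup 1 and 7.27% in pup 2. Reads that several models share were divided by the authors' estimation, so these splits carry an error that the counting interval does not cover. In the second, posterior mean estimate of the shares, Slc30a2-202 held 2.70% of TPM in pup 1 and 4.29% in pup 2, although its reads above were 0 in pup 2. The shares of Slc30a2-201 were 31.2% and 10.6%. The 8.54-fold gap of the downstream models thus depends in part on the estimate used, and was not recomputed from posterior means.

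**Figure D3:**
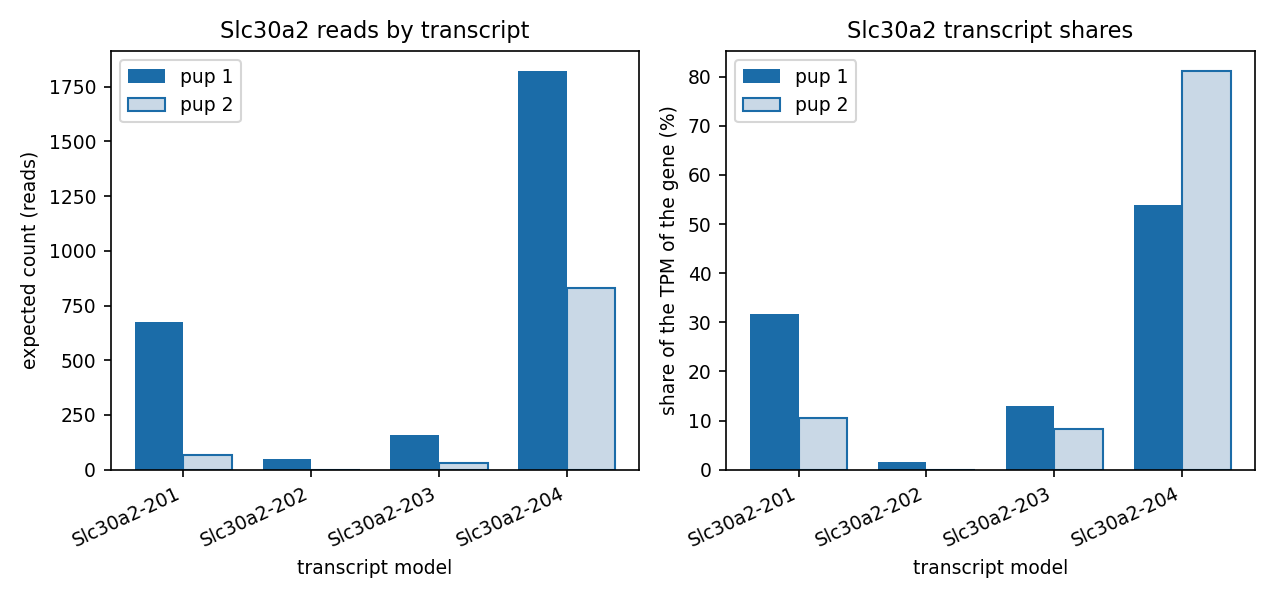
Expected counts (left) and share of the gene's TPM in percent (right) of the 4 transcript models of Slc30a2, with pup 1 in dark bars and pup 2 in pale bars. Slc30a2-201 has 674 and 67.7 reads in pups 1 and 2, and Slc30a2-204 holds 81.2% of TPM in pup 2.

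Marker genes were set beside the Slc30a2 difference. The sum of the 5 Paneth markers, 867 and 879 TPM, was carried by the defensins Defa24 (602 and 601 TPM) and Defa17 (242 and 258 TPM). The less abundant Paneth markers went both ways. Ang4 was 1.79-fold (1.41 to 2.30) and Mmp7 1.31-fold (1.07 to 1.62) higher in pup 1, as Slc30a2 was, and Lyz1 stood at 6.16 and 7.73 TPM. Exocrine pancreas, another tissue that expresses Slc30a2, had all 8 markers higher in TPM in pup 2, the pup with less Slc30a2. Of these, Pnlip had 0 and 3 reads and was not tested, and the intervals of Cela1 and Cpa1 held 1. The intervals of Clps, Ctrb1, Cela2a, Cel and Cpb1 lay above 1, with Ctrb1 furthest apart at 1.49-fold higher in pup 2 (1.39 to 1.58). Of the 6 islet markers 4 were higher in pup 1, and the hormone genes of the beta cell came near the gap of Slc30a2. Ins2 was 2.20-fold (1.82 to 2.68), Ins1 1.98-fold (1.53 to 2.59) and Iapp 1.87-fold (1.38 to 2.54) higher in pup 1. Sst, at 70.5 and 73.6 TPM, and Gcg, at 38.8 and 29.2 TPM, which gut endocrine cells also make, were the largest parts of the islet sum. Pdx1, a transcription factor of the beta cell and of the duodenum, stood at 2.84 and 4.00 TPM and was 1.35-fold higher in pup 2 (1.18 to 1.54). Car1, a marker of the large intestine, had 235 reads in pup 1 and 0 in pup 2. In TPM 4 of the 6 colon markers were higher in pup 1, but Hoxd12 and Hoxd13 among them had too few reads to be tested. Of the 3 tested, Car1 and Aqp8 were higher in pup 1 and Slc26a3 in pup 2. Aqp8 was 1.41-fold higher in pup 1 (1.28 to 1.56) and Hoxd12 had 8 and 0 reads, while Slc26a3 was higher in pup 2, at 49.3 and 60.2 TPM. The colon sum was 80.4 and 78.9 TPM, and the defining factors Hoxd13 and Hoxa13 had 1 and 0 and 1 and 2 reads. The stretch of intestine sampled was not given in the sources used here. How far these marker values bear on the Slc30a2 gap was not tested.

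Among the copper genes the chaperone Atox1 and the importer Slc31a1 were high and the pumps low. Atox1, which hands copper to Atp7a and Atp7b, stood at 512 and 514 TPM, ranked 230th among protein-coding genes and made up 75.7% and 73.9% of the copper class. Slc31a1, the high-affinity copper importer, stood at 107 and 120 TPM. Its neighbour Slc31a2, a related protein of internal membranes, stood at 12.9 and 14.3 TPM. Both lie within 129 kb of chromosome 4 and differed by 8.28-fold and 8.40-fold, a log2 ratio of 3.05 ± 0.015.

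Ccs, the chaperone that delivers copper to superoxide dismutase, stood at 33.4 and 33.6 TPM, so Atox1 exceeded it by 15.3-fold in each pup. Atp7a, the pump mutated in Menkes disease, stood at 7.81 and 8.60 TPM. Atp7b, the pump mutated in Wilson disease and best known from liver, stood at 2.41 and 3.14 TPM. Atp7a exceeded Atp7b by 3.24-fold and 2.74-fold (log2 ratio 1.54 ± 0.16). Cp, the copper-carrying ferroxidase of blood plasma, stood at 0.97 and 1.46 TPM. Between pups, Atp7b differed most among the detected copper genes, at 1.25-fold higher in pup 2 (1.10 to 1.40). Of the 7 liver markers 3 were detected, and Afp (427 and 551 TPM) and Ttr (335 and 310 TPM) made up nearly all of their sum. The defining liver gene Alb stood at 0.79 and 0.86 TPM. The part of liver RNA in the Atp7b value was not tested.

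The genes that use the metals were read from 3 further lists. Of 15 copper enzymes 11 were detected, led by Sod1, the cytosolic superoxide dismutase, at 1496 ± 16.7 TPM (SD, n = 2). Aoc1, a diamine oxidase, stood at 83.2 ± 2.96 TPM and Pam, which amidates peptide hormones, at 55.6 ± 3.88 TPM. Heph, the membrane-bound relative of Cp, stood at 37.1 ± 2.51 TPM, so the ferroxidase of the enterocyte was far above Cp. Of 12 genes for copper delivery and reduction 10 were detected, led by Cox17, the copper chaperone of mitochondria, at 459 ± 17.0 TPM. Commd1, which acts in copper excretion, stood at 232 ± 4.60 and Cox19, another mitochondrial copper protein, at 42.9 ± 2.30 TPM. Of 13 zinc enzymes and sensors 10 were detected, led by Alpi, the intestinal alkaline phosphatase of the brush border, at 1069 ± 65.1 TPM, with Ace, a peptidase, at 183 ± 5.11 TPM. None of the genes tested in these 3 lists, 13, 12 and 12 in turn, was called over 2-fold apart, beside 0.796% of all 19088 genes tested. With so low a share, lists of this size can hold none. Steap4, at 1.99-fold (1.54 to 2.60), and Sod3, at 1.83-fold (1.65 to 2.03), came nearest, both higher in pup 1.

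The classes were set against each other as the difference between medians over their members of log2(TPM + 0.1). Zip importers were above ZnT exporters by 1.09 in pup 1 and 1.34 in pup 2, a mean of 1.22 ± 0.17 (SD, n = 2) or 2.32-fold. Copper genes were above ZnT exporters by 0.40 ± 0.035 and below Zip importers by 1.76-fold (log2 difference -0.81 ± 0.14). In summed TPM the Zip class stood at 710 and 666, the ZnT class at 159 and 148, the copper class at 676 and 696 and the metallothioneins at 1848 and 2041. The order of Zip above ZnT held in each pup and was larger than the spread between pups. It was 0.61 ± 0.0072 when only coding transcript models were summed. The copper and Zip classes changed places with the statistic: by the mean over members copper was above Zip by 0.28 ± 0.11.

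**Figure D4:**
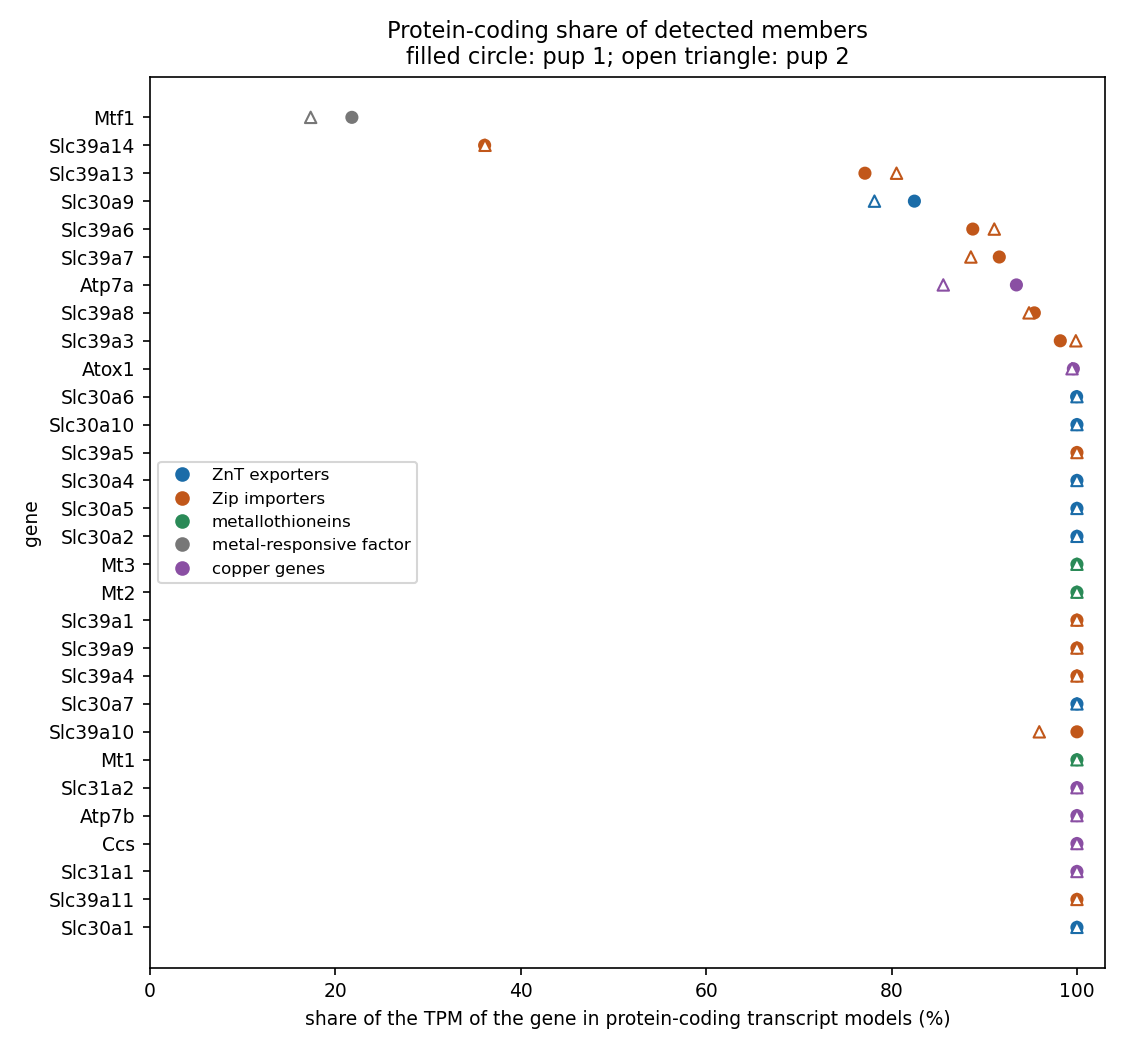
Share of each detected gene's TPM in protein-coding transcript models, in percent, with pup 1 as a filled circle and pup 2 as an open triangle. Mtf1 at 21.8% and 17.3% and Slc39a14 at 36.1% in each pup stand apart from the rest.

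The share of coding models separated a few members from the others. It was at least 95% in both pups for 22 of the 30 detected members. Besides Mtf1 and Slc39a14, it was 77.1% and 80.5% for Slc39a13, 82.5% and 78.2% for Slc30a9, 88.8% and 91.1% for Slc39a6 and 91.6% and 88.6% for Slc39a7. Atp7a stood at 93.5% and 85.6% and Slc39a8 at 95.4% and 94.8%. The exons of Slc39a13 overlap Psmc3 on the opposite strand by 215 bases, and those of Slc39a7 overlap Gm20427 on the same strand by 2084, so both levels are uncertain. Exonic bases shared with opposite-strand genes also touch Slc39a9 (459 with Erh), Slc30a1 (468 with 1700034H15Rik) and Cp (108 with Hps3), and Slc39a2 shares 151 with Mettl17 on its own strand. Slc30a4 shares 130 bases with 4930417H01Rik, and Slc30a7 shares 637 and 1165 with the pseudogenes Gm43106 and Gm6649.

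Most of the set differed little between the littermates, as did most detected protein-coding genes. Of the 30 detected members, 26 were within 1.2-fold between pups, beside 88.8% of all detected protein-coding genes. The interval of the ratio held 1 for 19 members, lay above 1 (pup 2 higher) for 6 and below 1 for 5. These counts depend on read number, since the interval covers counting error only. The same counts were not taken over all detected genes, so they are no trait of the set. The 4 members outside 1.2-fold were Slc30a2 and Slc39a4, higher in pup 1, and Slc39a14 and Atp7b, higher in pup 2. The median absolute log2 ratio was 0.058 over detected members and 0.095 over detected protein-coding genes, and the members have the higher median level.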

How the data were processed

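Total RNA longer than 200 nt was sequenced from the intestine of 2 pups, which form 1 group. The authors deposited expected counts and TPM for genes and transcripts, with a percent share for each transcript within its gene, per the file headers. Reads were placed on mm10 with GENCODE M4 models, per a deposited text file. The quantifier, the aligner and the strand setting were not given in the sources used here. Symbols and positions came from GENCODE M21 on the same assembly, matched by identifier without version for 42462 of 43346 genes (98.0%).

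Detected means at least 1 TPM in each pup. Pairs and class contrasts used log2(TPM + 0.1), per pup, given as mean ± SD. Expected counts were rounded to whole numbers and scaled by TMM library sizes over the whole table (edgeR 4.0.16, R 4.3.3), with exact Clopper-Pearson 95% intervals of the ratio (SciPy 1.17.1). A gene or transcript was called over 2-fold apart where the interval lay wholly past 2-fold at a summed count of 10 or more. No replicate-based test was possible with 1 group of 2 pups. DESeq2 1.42.0 size factors, other pseudocounts, limits and posterior mean estimates were the alternatives, and sums over coding transcripts were added after seeing the data. The ratio rule was tried on counts simulated with counting error alone at the same library sizes. That trial holds no variation between animals and no error in dividing reads, so it cannot speak to either. Python 3.11.15 with pandas 2.3.3 and matplotlib 3.10.9 made the tables and plots.

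Values in full are given for the 4 highest ZnT and Zip members, all metallothioneins, Mtf1 and copper members, pairs and members over 2-fold apart, and for the 3 highest of each further list. A gene that meets this rule is not reported here. Other members, markers and list genes named were chosen after their values were seen. The members and lists were chosen with earlier results of these data known.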

Additional observations from a re-analysis of the deposited data

How the results depend on the processing

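Keeping only detected members, the Zip over ZnT difference was 1.03 ± 0.48, copper over ZnT 0.59 ± 0.46 and copper over Zip -0.43 ± 0.027 (log2, SD, n = 2). Copper over ZnT was then little larger than its spread, which was 0.035 over all members. Means over members in place of medians gave 1.62 for copper over ZnT and turned copper over Zip to 0.28. Coding transcripts alone, chosen after seeing the data, gave 0.61 for Zip over ZnT and -0.21 for copper over Zip. Calling members on the point ratio past 2-fold gave 2, Slc30a2 and Mt4, in place of 1. DESeq2 size factors moved the ratios of detected members by 0.00088 on the log2 scale and changed no call. Without length normalisation 10 of 12 pair ratios moved beyond their spread. With coding transcripts alone 4 of 12 did, and with a pseudocount of 1 TPM 5 of 12. No mean ratio changed sign, but on coding transcripts Slc39a14 over Slc30a10 differed in sign between the pups. Posterior mean estimates moved 7 of 30 levels, at most by 14.4% (Slc39a13), and 12 of 28 transcript shares. Detected members numbered 30 to 33 over all alternatives. With 1 pup left out, the Zip over ZnT difference was 1.09 and 1.34. No paired analysis was possible because the pups form 1 group. Counting error limits members under about 10 reads, Slc30a3, Slc30a8, Slc39a12 and Mt4 in pup 1.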
